A study of Schizosaccharomyces pombe with 2 samples.

Results

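The regions described here are the 5′ UTRs and divergent promoters of fission yeast (Schizosaccharomyces pombe), as they stand in the genome annotation that was deposited with the study. All lines typed as 5′-UTR on chromosomes 1 to 3 were taken, which gave 4875 of the 33839 lines of the annotation. Their lengths were summed per gene, and 4700 of the 5155 genes with an mRNA line had at least 1 such line (91.2%). A divergent pair was defined as neighbouring mRNA lines, ordered by start, of which the left lies on the minus strand and the right on the plus strand, and 1406 of 5152 neighbouring pairs had this arrangement (27.3%). The study itself collected 2 libraries of H3K9me2 ChIP-seq, labelled as replicates 1 and 2, from swi6Δ cells grown in YES, a rich medium. Both libraries carried the same deletion of swi6+, which encodes an HP1 protein, and no wild-type library was analysed here. The annotation holds no read count, peak or score for either library, so the depth of the libraries is unknown and no level of H3K9me2 is given below. Lengths and counts describe 1 annotation, have no replicate error and were not tested.

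A 5′ UTR is the part of an mRNA between the transcription start and the start codon, which the small ribosomal subunit scans before translation begins. Genes transcribed away from each other share the DNA between their starts, and that DNA then holds the promoter elements of both. In fission yeast, a TATA element directs initiation a short distance downstream, and many ribosomal protein genes carry in its place a motif named Homol D, often with a second motif named Homol E. Heterochromatin in this species is built on centromeric repeats, chromosome ends and the mating-type region, and the genes next to it are read from promoters of the same kinds.

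The shortest regions shared by genes of the same complex are printed first, since a few bases separated the 2 mRNA starts. Capitals mark the bases between the mRNA starts of the ribosomal protein pairs, and the bases that lie in both mRNAs of the histone pairs. All sequences were read from the RefSeq genome (ASM294v3), whose chromosome lengths are those of the deposited annotation, and these are on the plus strand.
rps1602-rpl13, chr1:1711116-1711144: tgttgcgaaAAAAAGCAGTCacgtttgtg
rpl701-rps1402, chr2:1792289-1792318: gtttcgaCACAAATTTGTGACTGttccttt
hhf2-hht2, chr2:1365028-1365056: tagcggggaagccGAAatcgcaatcttaa
hht3-hhf3, chr2:3529643-3529671: ttaaattgacgtaaGttaatagggacggc

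Between the coding starts of 3 of the 4 divergent ribosomal protein pairs stood the Homol D motif CAGTCACA, shown in capitals on the strand that reads it. The pair rpl701-rps1402 held 1 copy on each strand, and the pair rps1602-rpl13 held none with these letters. The sequence printed above for rps1602-rpl13 reads CAGTCACG instead, a variant that differs in the last letter.
rpl701-rps1402, plus strand, chr2:1792269-1792294: tcccatgagCAGTCACAaaagtttcg
rpl701-rps1402, minus strand, chr2:1792295-1792320: ctaaaggaaCAGTCACAaatttgtgt
rpl35-rpl902, plus strand, chr3:89623-89648: aaagaaaagCAGTCACActagtgcaa
rps2-rps20, minus strand, chr3:2096066-2096091: gagcccaaaCAGTCACActcattata

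The 3 divergent pairs of histone H3 and H4 genes held the histone box AACCCT between their coding starts, in 2 copies that stood end to end. Capitals mark the first copy, and in each of these pairs the letters atca stood 1 base before it.
hhf1-hht1, plus strand, chr1:4699642-4699667: tctgcatcaaAACCCTaaccctgctt
hhf2-hht2, minus strand, chr2:1365056-1365081: agtcaatcacAACCCTaaccctgatt
hht3-hhf3, plus strand, chr2:3529617-3529642: ctttgatcacAACCCTaaccctttaa

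The 5′ UTRs had a median length of 173 bases, with quartiles at 89 bases (p25) and 333 bases (p75). From 100 to under 200 bases lay 1243 genes. Below 50 bases lay 452 genes, and 227 genes had 1000 bases or more. Median lengths were 178 bases on chromosome 1, 162 on chromosome 2 and 189 on chromosome 3. Summed over genes, the 5′ UTRs had 1372723 bases, equal to 10.9% of the chromosome bases, with bases shared by overlapping leaders counted for each gene. In 4588 genes with both UTRs annotated, the 5′ UTR was the shorter in the median (176 against 265 bases) and the longer in 1666 genes (36.3%). Across these genes the lengths of the 5′ and 3′ UTRs hardly went together (Spearman's rho of 0.09, a description across genes, which are not independent replicates). In 235 genes the 5′ UTR was longer than the coding sequence it precedes.

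The source of a 5′ UTR went with its length. A single literature reference was cited by the lines of 4202 genes, whose median was 184 bases. A second reference, cited for 155 genes, gave a median of 96 bases, the 319 genes whose lines cited none had a median of 112 bases, and the 24 genes with other references had one of 376.5 bases. The part of the source in the differences between gene groups was not tested.

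The RefSeq annotation of the same sequence placed most starts elsewhere. Of 4361 genes with a 5′ UTR in both annotations, 27 had the same first base, and 633 starts lay within 10 bases of each other (14.5%). The deposited start lay farther upstream in 3603 genes (82.6%), and the median distance among starts that differed was 47 bases. The median length of these genes was 171 bases in the deposited annotation and 100 bases in RefSeq.

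**Figure D1:**
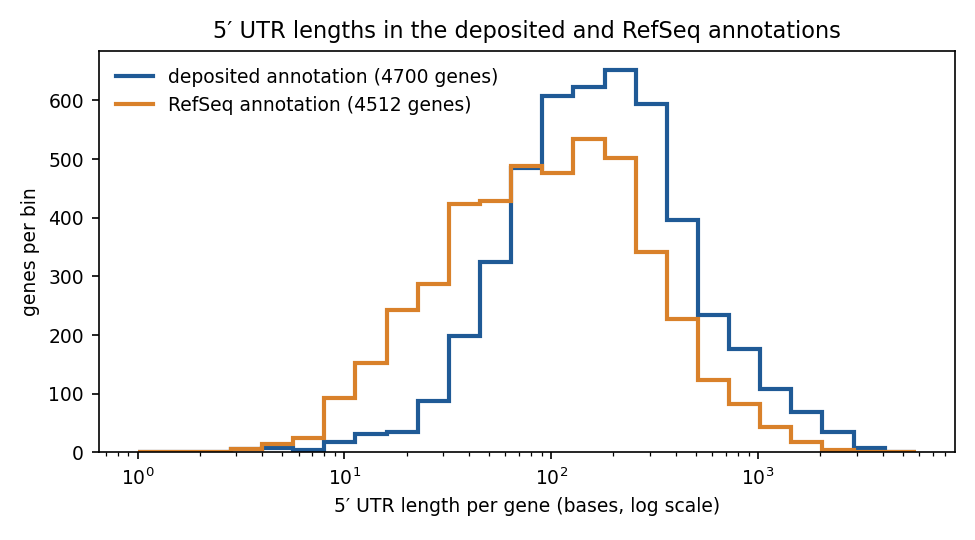
Number of genes (vertical axis) by 5′ UTR length in bases (horizontal axis, log scale) in the deposited annotation (blue) and in RefSeq (orange). The deposited lengths have a median of 173 bases and the RefSeq lengths a median of 97 bases.

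The longest 5′ UTR belonged to gti1+, an inducer of gluconate transport, with 4397 bases on the minus strand of chromosome 1. It was followed by mbx2+, a MADS-box transcription factor gene, with 4059 bases, and by the dubious gene SPAC1071.13 with 3338 bases. The gene zfs1+, which encodes a zinc finger protein of mRNA decay, had 3194 bases, and SPAC57A7.05, a conserved protein gene, had 3185 bases. These long leaders differed in the number of ATG triplets they held. There were 71 in gti1+ and 70 in mbx2+, but 6 in zfs1+, whose leader was of similar length.

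RefSeq kept a long leader for some of these genes and not for others. It gave 2778 bases for zfs1+ and 2271 bases for SPAC57A7.05, but 1058 bases for gti1+ and no 5′ UTR for mbx2+ or SPAC1071.13. Of 223 genes with a deposited 5′ UTR of 1000 bases or more and a RefSeq counterpart, 65 also reached 1000 bases in RefSeq and 129 stayed below 500 bases. The leader of gti1+ ran through the mRNA of its neighbour loc1+, so part of it cannot be told apart from the neighbouring transcript by position alone.

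The shortest 5′ UTR was that of hrs1+, a histidine-tRNA ligase gene, with 2 bases. SPAC17A2.07c, SPAC1B9.03c, mas2+ (a mitochondrial processing peptidase subunit), zip2+ (a vacuolar zinc transporter) and cid12+ (a poly(A) polymerase of the RNAi pathway) had 3 bases each. Their start regions are printed up to the start codon, with the annotated 5′ UTR in capitals, because so short a leader leaves the start codon almost at the cap.
hrs1, plus strand, chr2:3457145-3457167: tttgcattttcagttagtGCatg
cid12, plus strand, chr3:1655649-1655671: caaaatgccatttcttaAGAatg
zip2, plus strand, chr3:2131741-2131763: taatttccatatttaaaGTCatg
mas2, minus strand, chr2:2098034-2098056: cagtaattaaccgtacaCAGatg
RefSeq placed the mRNA start farther upstream for cid12+ (23 bases of leader) and zip2+ (29 bases). For mas2+ its leader had 13 bases although its mRNA start lay downstream of the deposited one, and it gave none for hrs1+.

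Gene groups differed in 5′ UTR length. The cytosolic ribosomal protein genes had short and uniform leaders, with a median of 68.5 bases over 136 genes, and 98 of them lay between 30 and 100 bases. The shortest was that of rpl4302+ (10 bases) and the longest that of rpp0+ (1115 bases), which encodes the P0 stalk protein. The list was built on gene symbols and also took in 3 genes of RNase P or RNase MRP subunits, rpp1+ without a 5′ UTR line, rpp21+ (334 bases) and rpp40+ (48 bases). Without them the median over 134 genes was also 68.5 bases, and 97 lay between 30 and 100 bases. The glycolysis genes had a median of 108 bases over 14 genes, from 31 bases in the aldolase gene fba1+ to 1932 bases in the alcohol dehydrogenase gene adh1+. The deposited leader of adh1+ held 38 ATG triplets, whereas RefSeq gave it 67 bases and no upstream ATG.

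The 11 core histone genes had a median of 148 bases, from 97 bases in htb1+ (H2B) to 420 bases in cnp1+, which encodes the centromeric histone H3 variant. The 25 heterochromatin genes had a median of 160 bases, near that of all genes. In this list swi6+, the gene deleted in the cells of the study, had 72 bases, and the gene of the second HP1 protein, chp2+, had 508 bases. RefSeq gave 97 bases for swi6+ and no 5′ UTR for chp2+. The H3K9 methyltransferase gene clr4+ had 440 bases, the argonaute gene ago1+ had 34 bases, and chp1+, which encodes a chromodomain protein of the RITS complex, had the longest leader of the list with 805 bases.

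The cell cycle and sexual differentiation genes stood at the long end. The 19 cell cycle genes had a median of 371 bases, and 13 of them were above the median of all genes. Among them the cyclin gene cig2+ had 1349 bases and the MBF subunit gene res2+ had 50 bases. The 13 sexual differentiation genes with a 5′ UTR had a median of 583 bases, and 10 of them were above the median of all genes. The transcription factor gene ste11+ had 2274 bases, the kinase gene pat1+ had 2116 bases and mei2+, which encodes the RNA-binding inducer of meiosis, had 1723 bases, while spo5+ had 57 bases. The 15 nutrient and stress genes had a median of 244 bases, up to 1184 bases in the acid phosphatase gene pho1+. RefSeq gave 51 bases for pho1+ and no 5′ UTR for pat1+, but 2210 bases for ste11+ and 1733 bases for mei2+. Over the genes with a 5′ UTR in both annotations, the RefSeq medians were lower in all of these lists. Their order placed the same lists at both ends, from the ribosomal protein genes (21 bases, 131 genes) to the sexual differentiation genes (510 bases, 9 genes). The latter value leaves out mam2+, map3+, pat1+ and ste6+, which had no 5′ UTR in RefSeq.

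**Figure D2:**
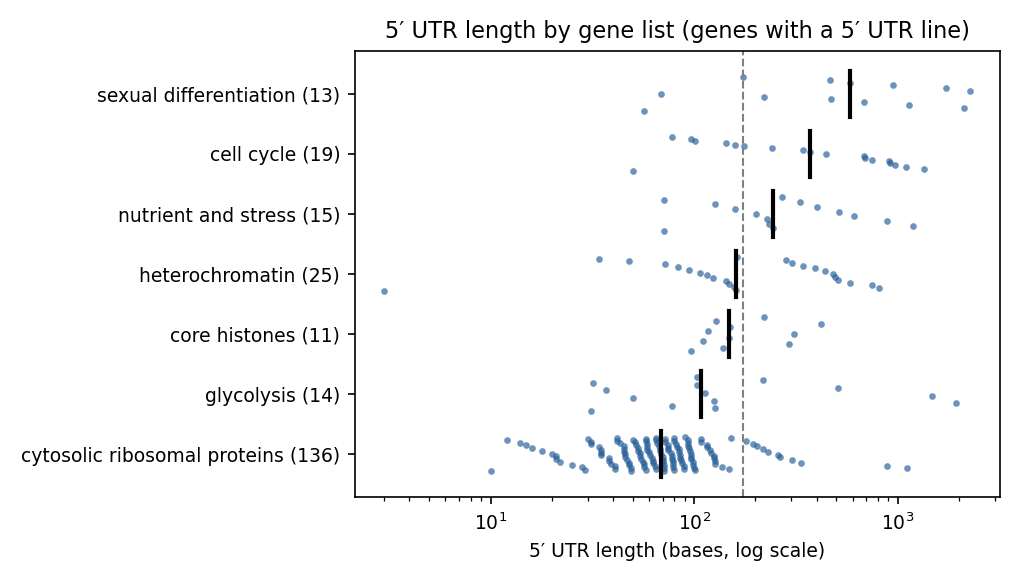
5′ UTR length in bases (horizontal axis, log scale) of each gene (points) in 7 gene lists (rows, with the number of genes). Black bars are list medians, from 68.5 bases for ribosomal proteins to 583 bases for sexual differentiation, the dashed line is the median of all genes (173 bases), and the vertical scatter within a row has no meaning.

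A small set of leaders was spliced. In 159 genes the 5′ UTR was given in 2 lines and in 8 genes in 3 lines (3.55% of genes together). These leaders had medians of 337 and 716.5 bases, against 168 bases for genes with 1 line. All 175 introns between the lines began with GT and ended with AG, and 53 of them began with GTAAGT. Their median length was 65 bases, close to the 55 bases of the 5092 introns between coding exons, but they reached 855 bases in atf1+, the gene of a stress response transcription factor. The intron of the glyceraldehyde-3-phosphate dehydrogenase gene gpd3+ was 543 bases long.

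The genes with 3 lines had varied functions. The longest of their leaders belonged to pfl7+, a predicted cell surface glycoprotein gene, with 1861 bases, followed by mug126+ with 968 bases and SPBC30D10.05c, a predicted reductase gene, with 837 bases. SPAC1039.01, an amino acid permease gene, had 739 bases and erm1+, a metallopeptidase gene, 694 bases. The leaders of mug126+ and xks1+, a xylulose kinase gene, held 24 and 0 ATG triplets.

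The strand affected how spliced leaders were recorded. All 80 minus-strand genes with 2 or 3 lines had their first 5′ UTR line outside the mRNA line, by 66 to 1488 bases, and none of the 87 plus-strand genes had. For these 80 genes the mRNA line stops short of the transcription start, so that the start was taken below from the outermost 5′ UTR base wherever a sequence was read. In 4654 genes the last 5′ UTR base touched the coding sequence, and 4652 of these were followed by ATG. In 43 genes a gap of 2 to 411 bases separated the UTR from the coding sequence. In 41 of them the gap was a multiple of 3, and in 40 of those the UTR ended at an ATG in frame with the annotated start. The gap was the widest in trr1+, the thioredoxin reductase gene, with 411 bases.

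No 5′ UTR line was found for 455 genes (8.83%), and in all of them the mRNA line began at the first coding base. Of 28 genes whose product names a pseudogene, 25 lacked a line (89.3%), as did 33 of 78 dubious genes (42.3%) and 72 of 309 sequence orphans (23.3%). Among listed genes other than those of ribosomal proteins, ssm4+ of sexual differentiation and tgp1+, a phosphate-responsive transporter gene, lacked one. RefSeq gave a 5′ UTR for 149 of the 416 genes found there, with a median of 50 bases.

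The bases at the annotated starts differed between the annotations. In RefSeq 93.9% of the 4361 starts had a pyrimidine at the base before the start and a purine at the first base, the usual pair at RNA polymerase II start sites. At the deposited starts of the same genes the share was 25.2%, against 23.1% over all chromosome positions. The deposited starts were therefore close to the share of any position in this pair of bases.

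The TATA motif TATAAA on the gene's strand was found in the 100 bases before 586 of 4700 deposited starts (12.5%). The share was 12.3% in genes of divergent pairs and 12.6% in the other genes. Around the deposited starts its frequency was nearly flat, with 2.04% of genes in the highest bin of 10 bases (50 to 41 bases before the start). Around the RefSeq starts of the same genes it rose to 183 genes (4.20%) in the bin 40 to 31 bases before the start, and fell to 0.183% of genes in the 10 bases from the start onward. In 115 of these 183 genes (62.8%) the deposited start lay before the TATAAA, which put the motif inside the deposited 5′ UTR.

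**Figure D3:**
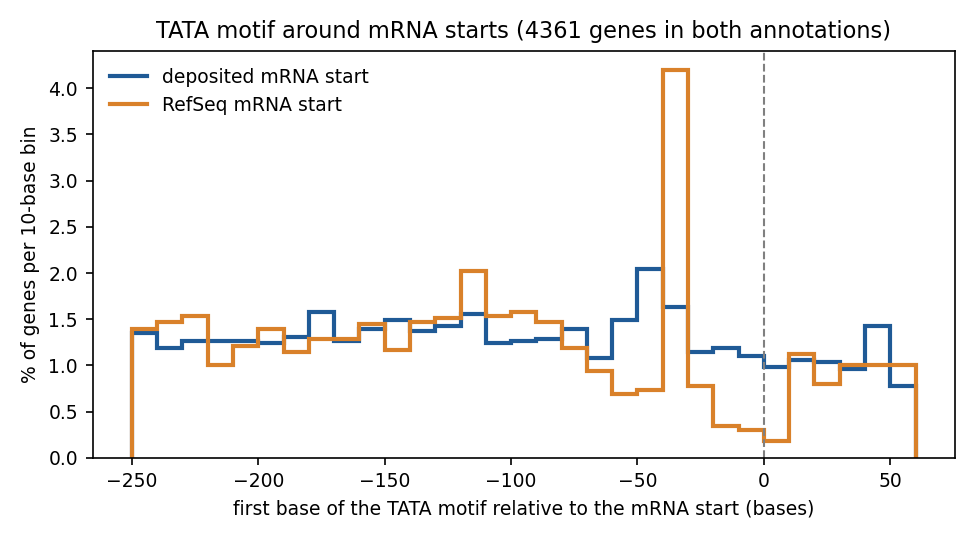
Percentage of 4361 genes with the TATA motif (vertical axis, bins of 10 bases) by the distance of its first base from the mRNA start (horizontal axis), for deposited (blue) and RefSeq (orange) starts. The RefSeq profile peaks at 4.20% in 1 bin, 40 to 31 bases before the start, where the deposited profile is at 1.63%.

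Named genes of this kind were spread over several lists. The motif is printed in capitals for 4 of them, on the gene's strand, because its place relative to the 2 starts shows the difference. In the phosphoglycerate kinase gene pgk1+ it began 42 bases after the deposited start and 40 bases before the RefSeq start. In tdh1+, a glyceraldehyde-3-phosphate dehydrogenase gene, it began 23 bases after the deposited and 38 bases before the RefSeq start. In leu1+, a leucine biosynthesis gene used as a marker, it began 19 bases after the former and 31 bases before the latter. In hsp16+, a small heat shock protein gene, both annotations had the same start, 33 bases after the first base of the motif.
pgk1, chr2:4159484-4159513: gattaattggggTATAAAtatgaggccaag
tdh1, chr2:2807545-2807574: gggatggaaaggTATAAAtagaggcaggcg
leu1, chr2:1975688-1975717: cccaatctgtagTATAAAaagtgcaacagt
hsp16, chr2:2661008-2661037: ttcccagaaaggTATAAAtaagggtactcc

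The Homol D motif CAGTCACA, searched on both strands, marked the ribosomal protein genes. It stood in the 250 bases before the deposited start of 45 of 136 such genes (33.1%) and of 81 of all 4700 genes (1.72%). Counted from the first coding base instead, 84 of the 136 genes held it (61.8%), against 115 of the 4700 (2.45%). Its place relative to the start codon was narrow. Counted for each gene, those without a 5′ UTR line included, 91 positions in 87 genes lay a median of 72 bases before the coding start (p25 64, p75 81.5), and 87 of them lay between 50 and 100 bases. They came from 87 distinct copies, since 4 copies stood before 2 listed genes each and were counted for both.

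The same motif was more widely spread around the deposited starts, with a median of 8 bases upstream (-8, p25 -21, p75 9.25). Of 88 positions with a deposited start, 34 lay inside the annotated 5′ UTR. Relative to the RefSeq starts the median was 51 bases upstream (p25 -56.5, p75 -47), and 1 of 87 positions, that of rpl701+, lay inside the 5′ UTR. Among the 83 copies counted for 1 gene, 58 had the orientation of the gene and 25 the opposite. Over the 131 ribosomal protein genes with a 5′ UTR in both annotations, the median leader was 69 bases in the deposited and 21 bases in the RefSeq annotation.

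**Figure D4:**
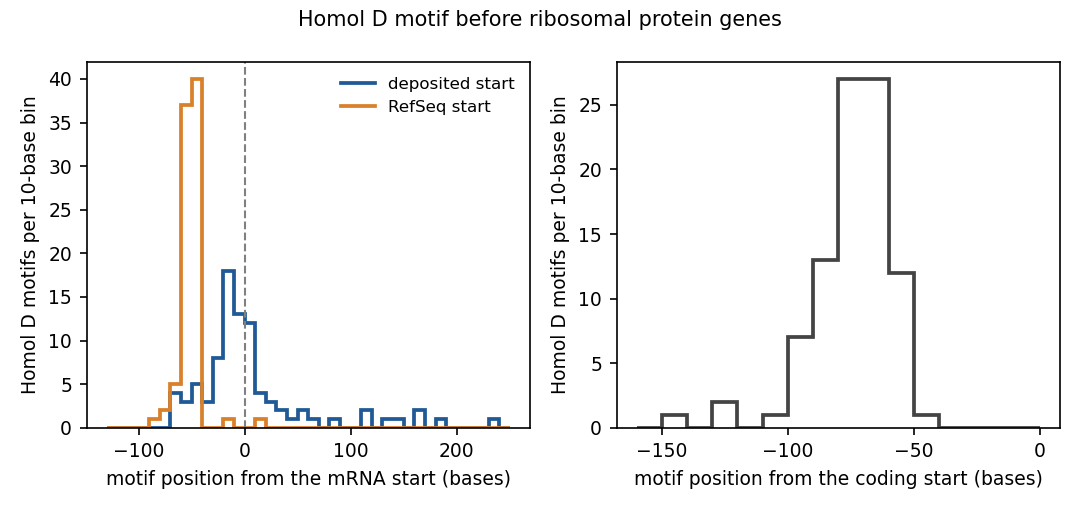
Left, number of Homol D positions counted for each gene (vertical axis, bins of 10 bases) by distance from the deposited (blue) and RefSeq (orange) mRNA start of ribosomal protein genes. Right, the same positions by distance from the coding start, where the median is 72 bases; the RefSeq distances cluster around 51 bases before the start and the deposited ones spread to both sides of it.

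The annotation itself holds 36 promoter lines labelled Homol D and 21 labelled Homol E, all before ribosomal protein genes. The Homol D lines lay a median of 73 bases and the Homol E lines a median of 91 bases before the coding start. Of the 36 Homol D lines, 11 began inside the deposited 5′ UTR, for example 48 bases into that of rps601+. The most frequent Homol E sequence was ACCCTACCCT, found in 8 lines, and its reverse complement was given in 7. At rps1701+ the line labelled Homol E read CAGTCACA and the line labelled Homol D read ACCCTACCCT, so the 2 labels were exchanged there.

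Other motifs, chosen after results were known, were searched on both strands in the 250 bases before the deposited starts, and the matches describe letters and not binding. The histone box AACCCT stood before 6 of 11 histone genes, 37 of 136 ribosomal protein genes, where it can overlap Homol E, and 7.87% of all genes. In the histone pairs hta1-htb1 and hhf1-hht1 the same copies were counted for both genes. The box was not particular to these lists, since it also stood before 4 of 13 sexual differentiation genes and 3 of 14 glycolysis genes. From the RefSeq starts it stood before 8 of 10 histone genes. The motif TTCTTTGTT, known as the binding site of Ste11, stood before 5 of 13 sexual differentiation genes and 1.74% of all genes. These were ste11+ itself (63 bases before the start), mei2+, pat1+ and rep1+ with 2 copies each, and ste7+ with 1. Copies before ste11+, mei2+ and ste7+ are printed because they show the letters these genes share.
ste11, plus strand, chr2:3983241-3983265: agttgaatTTCTTTGTTtgattttc
mei2, minus strand, chr1:4515147-4515171: tttaaagtTTCTTTGTTttacaaac
ste7, minus strand, chr1:453636-453660: tgttgattTTCTTTGTTtgaaaatg

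The motif TGACGT, part of the site of the Atf1 and Pcr1 factors, stood before 6 of 15 nutrient and stress genes and 4.45% of all genes. The 6 genes were atf1+ itself, pho1+, pho84+ (a phosphate transporter), gpd1+ (glycerol synthesis), ctt1+ (catalase) and ssa2+ (a heat shock protein). The same letters stood before 4 of 14 glycolysis genes and 3 of 11 histone genes. In atf1+ a copy on each strand overlapped, 29 and 27 bases before the start.
atf1, plus strand, chr2:1546157-1546178: tgatgcaaTGACGTcatctgtt
ctt1, minus strand, chr3:58879-58900: tgcaaataTGACGTtggtaatt
The motif ACGCGT, which MBF binds in S phase genes, is its own reverse complement and stood before 2 of 19 cell cycle genes, mik1+ and cig1+, before 2 of 11 histone genes and before 2.26% of all genes.

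The base composition differed little between the 5′ UTRs and the bases before them. In 3341 genes, G was 16.2% in the 10 bases before the deposited start and 16.3% in the 10 bases from it onward. The 5′ UTRs held 33.3% G and C, the 100 bases before them 32.5%, the gaps of divergent pairs 31.5% and the coding exons 39.6%. On the gene's strand, the 5′ UTRs held 30.4% A, 18.2% C, 15.1% G and 36.4% T. The 100 bases before them held 32.7% A, 16.6% C, 15.8% G and 34.8% T. Over the 10 bases before the start codon, the position 3 bases upstream was the least even. It was A in 61.0% of 4629 genes, G in 16.1%, T in 14.6% and C in 8.21%.

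Upstream ATGs were common but fewer than in the DNA next to the leaders. At least 1 ATG stood in 2977 of 4700 deposited 5′ UTRs (63.3%), against 83.4% of windows of the same length just before the mRNA start. The density was 9.55 per 1000 bases in the 5′ UTRs and 17.1 in the windows, a ratio of 0.557. The other triplets of the same 3 bases had ratios of 0.787 (GTA) to 0.916 (TGA). Near the start codon the ATG was rarer still, with 5.3 per 1000 bases in the last 50 bases of the leader and 11.2 per 1000 bases at 400 to 450 bases from it. The first value came from 4211 genes and the second from the 770 with leaders that long, so position and gene set changed together. In 2723 genes (57.9%) at least 1 upstream ATG was closed by a stop codon in frame before the main start, and the median closed frame had 10 codons, its ATG included. At upstream ATGs the base 3 positions before was A in 28.0%, compared with 61.0% at the main start codon.

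The share fell when RefSeq starts were used. Over the 4361 genes in both annotations, 62.9% of deposited and 36.6% of RefSeq 5′ UTRs held an ATG, at 9.02 and 4.71 per 1000 bases. The ribosomal protein genes went from 57 of 131 (43.5%) in the deposited to 2 of 131 (1.53%) in the RefSeq leaders, or from 56 to 1 of 130 without the RNase P subunit gene rpp40+. The glycolysis genes went from 4 of 14 to 0 of 14.

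Upstream ATGs were frequent in the heterochromatin genes in both annotations. In the deposited one 23 of 25 genes held at least 1 (92.0%), with leaders of 3 to 805 bases. Over all genes the share rose with length, so that length bears on the comparison. It was 15.7% for leaders under 50 bases, 39.7% from 50 to under 100 bases and 63.4% from 100 to under 200 bases. From 200 to under 400 bases it was 80.1%, and from 400 to under 800 bases 86.2%. Among listed leaders under 100 bases, those of ago1+ (34 bases), ers1+ (48), swi6+ (72), tas3+ (83) and stc1+ (94) held an ATG, and that of cid12+ did not. Of the 23 genes with a leader in both, 22 held an ATG in the deposited and 20 in the RefSeq 5′ UTR (87.0%). Among the 25 deposited leaders, the 2 without an ATG were those of cid12+, which was 3 bases long and held 1 in its RefSeq form, and mit1+, which encodes the chromatin remodeller of the SHREC complex. The 11 ATGs of hrr1+, the 10 each of rik1+ and rdp1+ and the 7 each of chp1+ and chp2+ were the highest deposited numbers in the list. In RefSeq the order differed, with 5 in dcr1+, 4 each in rdp1+ and epe1+, 3 in hrr1+, 2 in chp1+ and 1 in rik1+. No RefSeq number exists for chp2+, which had no 5′ UTR there.

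Short closed frames in these leaders are printed whole, on the gene's strand with the ATG in capitals, because they lie before genes of the H3K9 methylation and RNAi pathways. That of swi6+ began 63 bases before the main start codon, that of clr4+ 331 bases, that of ago1+ 19 bases, that of tas3+ 36 bases and the first of dcr1+ 282 bases.
swi6, chr1:1704047-1704064: ATGtttagtactttttaa
clr4, chr2:458361-458378: ATGaattggcattgctag
ago1, chr3:334118-334135: ATGattcagagtgagtag
tas3, chr2:1516141-1516164: ATGagagcttttgatcctatttga
dcr1, chr3:1510564-1510572: ATGttgtaa
The frame shown for dcr1+ lay before its RefSeq start, which left a leader of 267 bases. The frame of swi6+ was the single ATG of its leader in both annotations. The gene ago1+, with 34 deposited and 58 RefSeq bases, also held 1 ATG in both.

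Other transcripts ran across the leaders. An mRNA on the other strand overlapped 696 of the 4700 5′ UTRs (14.8%), and a coding exon on the other strand overlapped 151 (3.21%). A noncoding RNA on the other strand overlapped 708 (15.1%) and one on the same strand 207 (4.40%). Examples from the heterochromatin list with a noncoding RNA on the other strand of the leader were arb1+, cid14+, clr1+, clr3+, mit1+, rik1+ and taz1+.

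Divergent and convergent pairs numbered 1406 and 1404, and 2342 pairs were tandem. The near equality of the former counts follows from the rule, since divergent and convergent switches of strand alternate along each chromosome. The median gap was 459 bases for divergent, 261 for tandem and -52.5 bases for convergent pairs, where a negative value is an overlap. Overlaps were present in 297 divergent pairs (21.1%), 319 tandem pairs (13.6%) and 855 convergent pairs (60.9%). Where divergent mRNA lines overlapped, their coding starts did not always face apart. In 93 pairs the first coding base of the plus-strand gene lay left of that of the minus-strand gene, and in 84 of these the plus-strand mRNA lay wholly inside the minus-strand mRNA. The 5 largest overlaps were all of this kind, from wdr70-tit1 (-6304 bases), sec31-mde3 (-6223) and nop2-spt16 (-5359) to gap1-cct6 (-5326) and tcb3-rpb7 (-5172). The pair clr4-meu6 is a further example, with a gap of -4380 bases, so that the rule counts clr4+ although its coding start does not face away from that of meu6+.

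The remaining 1313 pairs, with 2626 genes, had coding starts facing apart and a median gap of 523 bases (p25 95, p75 1110). Their first coding bases were a median of 1043 bases apart. In 204 pairs the mRNA lines still overlapped, within the 5′ UTRs in 97 pairs and into the coding part of the partner in 107 pairs. In bins of 50 bases, 76 pairs had gaps of 0 to under 50 bases, 55 of 50 to under 100, 69 of 100 to under 150 and 49 of 150 to under 200 bases. The next bin, from 200 to under 250 bases, held 24 pairs, the fewest of these 5 bins. Genes of these pairs had a median 5′ UTR of 203 bases, and the other genes of 151.5 bases. Within a pair, the 2 leaders' lengths hardly went together (Spearman's rho of 0.12 over 1138 pairs, which is a description).

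**Figure D5:**
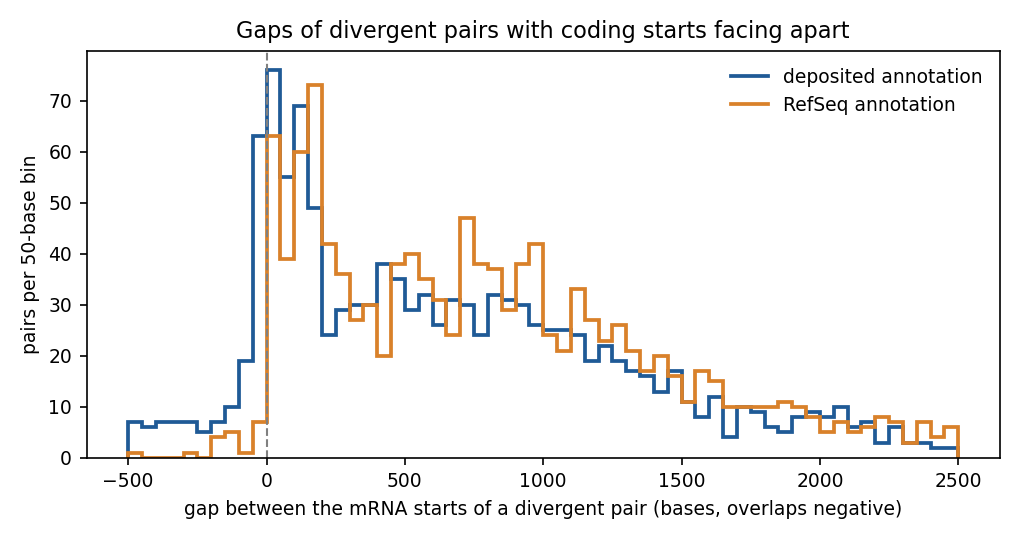
Number of pairs (vertical axis, bins of 50 bases) by the gap between the mRNA starts (horizontal axis, overlaps negative) for divergent pairs with coding starts facing apart, in the deposited (blue) and RefSeq (orange) annotation; 120 deposited and 84 RefSeq pairs lie outside the plotted range. The deposited pairs crowd on both sides of 0, while RefSeq shows 63 pairs at 0 to 50 bases and 73 pairs at 150 to 200 bases.

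RefSeq separated most of the overlapping starts. Of 1249 pairs found facing apart in both annotations, 1097 had the wider gap in RefSeq (87.8%), and the median was 522 bases in the deposited and 769 bases in the RefSeq annotation. Of the 190 pairs that overlapped in the deposited annotation, 22 also overlapped in RefSeq, and the median RefSeq gap of the 190 was 142 bases. The order of the pairs was largely kept (Spearman's rho of 0.85 over 1249 pairs, as a description). The largest deposited 5′ overlap, -2837 bases between the decapping enzyme gene dcp2+ and irc6+, was a gap of 177 bases in RefSeq. The overlap of agp3-dpe2 (-2374 bases), an amino acid transporter and a dipeptidyl peptidase gene, was a gap of 230 bases.

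The widest gaps held other features. The widest, 6772 bases between gsf2+ and SPCC1795.12c, contained 4 annotated features, all noncoding RNAs. The gap of adg1-SPAC2H10.04 was 5871 bases, that of cbm1-SPAPB2C8.01 5246 bases, that of puf5-SPAC4G8.04 4731 bases and that of SPAPJ695.01c-ght3 4679 bases. The RefSeq gaps of these pairs were similarly wide, from 5004 to 6764 bases. At the other end, 3 pairs had a gap of exactly 0. These were atg5-fyv4, with an autophagy gene, SPCC777.17c-vps35, with a retromer gene, and epl1-cnb1, with a histone acetyltransferase subunit and a calcineurin subunit. In RefSeq the same pairs were 419, 307 and 1215 bases apart.

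Of the 1106 gaps above 0 between coding starts facing apart, 638 held no other feature (57.7%) and had a median of 429.5 bases. A noncoding RNA touched 370 gaps (33.5%), a long terminal repeat 95 (8.59%) and a tRNA gene 43 (3.89%). Gaps with a feature had a median of 1129.5 bases. A feature was present in 84 of the 104 gaps of 2000 bases or more and in 54 of the 359 gaps under 400 bases. The 539 noncoding RNA lines in gaps lay wholly between the mRNA starts in 229 cases and ran across an mRNA start of the pair in 310.

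The 4 divergent histone pairs had narrow gaps. In hhf1-hht1, the genes of histones H4 and H3, the mRNA starts were 146 bases apart, and in hta1-htb1, the genes of H2A and H2B, they were 172 bases apart. The starts of hhf2-hht2 overlapped by 3 bases (gap -3) and those of hht3-hhf3 by 1 base (gap -1). RefSeq gave gaps of 132, 177, 134 and 201 bases in the order of these names. The AACCCT copies printed above stood inside the deposited gap in hhf1-hht1, and inside a 5′ UTR in hhf2-hht2 and hht3-hhf3.

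The 4 ribosomal protein pairs also were narrow, with 1 exception. The gap was 11 bases in rps1602-rpl13, 16 in rpl701-rps1402, 49 in rpl35-rpl902 and 485 in rps2-rps20. In RefSeq these gaps were 102, 67, 203 and 490 bases. Of the 141 listed genes, 69 belonged to a pair facing apart, a share near that of all genes (2626 of 5155). The partner was mostly of another function, such as the arginine methyltransferase gene in rmt1-rpl31, with a gap of 8 bases (187 bases in RefSeq).

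Of the 25 heterochromatin genes, 10 belonged to a pair facing apart, against 2626 of all 5155 genes, so such pairs were not particular to this list. The gap was 34 bases for hrr1+, a helicase of the RNA-dependent RNA polymerase complex, which faces the mitochondrial ribosomal protein gene mrpl22+. It was 43 bases for epe1+, whose product opposes heterochromatin, facing the DNA repair gene apn1+. The RNA-dependent RNA polymerase gene rdp1+ was 213 bases from exo8+, tas3+ 469 bases from apc15+ and stc1+ 500 bases from abz1+. Wider gaps stood before raf2+ (850 bases), chp1+ (970), rik1+ (1426), ago1+ (1451) and clr2+ (3492). Neither swi6+ nor chp2+ was in such a pair. Of the marker genes, ade6+ faced the checkpoint kinase gene bub1+ over 237 bases.

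Near the centromeres, 34 divergent pairs lay within 50 kb of the outermost repeats. The 33 of them that faced apart had a median gap of 183 bases, and the 1230 away from centromeres and ends had one of 513.5 bases. The low value held for this distance alone among those tried, since the median was 518 bases within 20 kb and 426 bases within 100 kb of the repeats. The chromosomes differed, with medians of 518 bases on chromosome 1 (13 pairs), 545 on chromosome 2 (10 pairs) and 14.5 on chromosome 3 (10 pairs). The nearest pairs lay between 7464 and 14432 bases from the repeats. On chromosome 1 these were lys1-rpl1002 on the left (9643 bases away, gap 550), with a lysine biosynthesis gene, and sdh1-azr1 on the right (9104 bases away, gap 518). On chromosome 3 they were ubc11-chk1 on the left, with the checkpoint kinase gene chk1+ (gap -35), and ppc1-cmc2 on the right (gap -270). The mRNA of emc5+, on the right of the centromere of chromosome 1, began 1490 bases from the last repeat with a leader of 68 bases, and rad50+ had 167 bases. Neither gene had a divergent partner.

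At the chromosome ends, 50 divergent pairs lay within 100 kb of an end, all facing apart, with a median gap of 1124.5 bases. Where a gene had no 5′ UTR line, the gap ran from its first coding base, and the part of this in the median was not tested. Genes without a 5′ UTR line were frequent near the ends, with 63 of 205 (30.7%) against 378 of 4815 elsewhere (7.85%) and 14 of 135 within 50 kb of centromere repeats (10.4%). The share was 64.1% within 25 kb of an end, 41.1% at 25 to 50 kb, 16.7% at 50 to 75 kb and 10.7% at 75 to 100 kb. It was the lowest on chromosome 3 (16.7%) and the highest on chromosome 2 (41.2%). At 3 of the 6 chromosome ends neither gene of the nearest pair had a leader, for example SPAC212.10 and SPAC212.09c, both pseudogenes, over 1287 bases, on chromosome 1, and SPBCPT2R1.07c and SPBCPT2R1.10 over 1254 bases on chromosome 2. Where a leader was annotated within 100 kb of an end, its median of 176.5 bases was close to that elsewhere (175 bases).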

How the data were processed

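The deposited file is a genome annotation of S. pombe in GFF form, listing GeneDB as its source, and its values are start and end positions of features, with no score. How the reads of the H3K9me2 ChIP-seq libraries were aligned, and their depth, are not given in the sources used here. Members and lists were chosen with earlier results of these data known. Lines were read with Python 3.11.15 and their lengths, neighbours and sequences were computed with numpy 2.4.6 and scipy 1.17.1, and the functions were tested on simulated data. Sequences and a second annotation came from RefSeq (ASM294v3), and 5135 of 5155 mRNA identifiers matched a RefSeq locus tag. Motif windows were 100 or 250 bases, and exact letters were searched, and all motifs beside TATA and Homol D were chosen after seeing the data. Figures were drawn with matplotlib 3.10.9. Centromere bounds are the outermost dg, dh, imr or adjoining repeat lines (joined over at most 5000 bases), and pairs within 50 kb of them or 100 kb of a chromosome end were counted. Genes named are the 5 extremes of each measure, the extreme members of each list, pairs within a list, pairs nearest to heterochromatin and genes the study names, with other examples chosen after their values were seen. No test was run, since the file holds no replicate values. The 2 UTR lines on a mating-type contig were left out.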

Additional observations from a re-analysis of the deposited data

How the results depend on the processing

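No paired analysis was possible because the annotation holds no values of either library. The median 5′ UTR length of 173 bases stayed between 168 and 177 bases with introns included, with only the line next to the start codon or with matching identifiers, but was 97 bases in RefSeq. The number of divergent pairs (1406) was 1410 by coding spans, 1395 in RefSeq, 1313 with coding starts facing apart and 989 when noncoding RNA lines also counted as neighbours. The median divergent gap of 459 bases became 985 bases from first coding base to first coding base, 1014 bases by coding spans and 715 bases in RefSeq, and lay between 423 and 523 bases under the other 4 settings. The share of 5′ UTRs with an upstream ATG (63.3%) was 57.9% for closed frames, 68.4% for leaders of 50 bases or more and 36.6% in RefSeq. The share of windows with TATAAA (12.5%) was 30.6% for TATAA, 28.1% in 250 bases and 11.6% at RefSeq starts. The share of ribosomal protein genes with Homol D (33.1%) was 41.9% with CAGTCACG also allowed, 61.8% from the first coding base and 61.8% from RefSeq starts, and stayed at 33.1% in 100 bases and 33.6% without RNase P and MRP subunits. Divergent pairs near centromeres (34 within 50 kb) were 12 within 20 kb and 74 within 100 kb, and those near chromosome ends (50 within 100 kb) were 24 within 50 kb and 116 within 200 kb. The settings with RefSeq starts or first coding bases for the motif and ATG shares, without RNase subunits, the facing-apart pairs and the gap from the outermost 5′ UTR base (449.5 bases) were chosen after seeing the data. A change by more than 1.5 times, or of a share beyond its 95% Wilson interval, was labelled as a change. The interval treats genes as independent draws, which they are not, so it served as a cut-off for the label and not as a test. The cause of the differences was not tested, and all values rest on the precision of the annotated starts.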

Other observations

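The mating-type contig held 2 further 5′ UTR lines, which the rule left out. The lines labelled as TATA boxes in the annotation were 2, before ipp1+ (inorganic pyrophosphatase) and tif45+ (a translation initiation factor), and they began 41 and 171 bases inside the deposited 5′ UTR.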
